A study of Mus musculus with 9 samples.

Results

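The MYC/MAX network was followed in cultured adult mouse neural stem cells (NSCs) through the transcripts of 10 genes: Myc, Mycn, Mycl, Max, Mxi1, Mxd1, Mxd3, Mxd4, Mlx and Mnt. The genes were taken by name, each from the row whose Ensembl identifier carries that symbol, and all 10 were found among the 55704 genes of the table and passed the filter on low values (a mean of at least 0.1 FPKM). The study asked how NSCs made quiescent by BMP4 alone differ from NSCs made quiescent by bFGF and BMP4 together. Cells came from the subventricular zone (SVZ) of C57BL/6 mice aged 8 to 9 weeks, with 2 females and 2 males pooled for an isolation, and had at least 3 passages in bFGF and EGF. They were then plated as a monolayer on poly-L-ornithine and laminin in bFGF and EGF for 16 to 18 h. The bFGF/EGF group was collected at that point, called day 0, and stands for proliferating, activated NSCs. In the bFGF/BMP4 group EGF was exchanged for BMP4, in the BMP4 group both bFGF and EGF were exchanged for BMP4, and both groups were collected at day 6. Each factor was used at 20 ng/ml. The labels give the supplement as B27 minus vitamin A for the bFGF/EGF medium and as B27, with no such note, for both treated media. Each group holds 3 libraries described as biological replicates. The labels do not say whether the replicates came from separate isolations, so p-values here measure the spread between these cultures. The control was collected 6 days before the treated cells, and the effect of the factors, that of time in culture and that of any difference in supplement cannot be told apart.

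MYC, MYCN and MYCL are transcription factors that bind DNA only as a pair with MAX, most often at the E-box CACGTG, and in that form they raise the transcription of genes for ribosome production, nucleotide synthesis and cell division. MXD1, MXI1, MXD3, MXD4 and MNT compete for MAX and for the same sites, and bring the SIN3 corepressor with its histone deacetylases in place of coactivators. MLX is a parallel partner that pairs with the glucose-responsive factors MondoA, encoded by Mlxip, and ChREBP, encoded by Mlxipl, and also with some MXD proteins and MNT. In the SVZ, MYC and MYCN are known for driving the growth of stem and progenitor cells, and MXD proteins for accompanying exit from the cell cycle.

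The libraries held from 15901154 to 17345415 fragments on genes, totals that are approximate because they were rebuilt from the FPKM values (fragments scaled to transcript length and library size), and each member was covered by 28 to 4331 fragments in a library. The NSC label was checked against 6 markers of NSCs and radial glia. For bFGF/EGF, bFGF/BMP4 and BMP4 in turn, Sox2 was at 167 ± 36.2, 137 ± 11.7 and 137 ± 13.4 FPKM (SD, n = 3). Nes was at 151 ± 6.38, 3.55 ± 0.523 and 15.8 ± 5.04 FPKM in the same order, and it was called lower in both treated groups. Vim was at 677 ± 75.9, 167 ± 18.4 and 892 ± 129 FPKM, and Fabp7 at 655 ± 59.3, 272 ± 28.4 and 484 ± 100, each called lower in bFGF/BMP4 than in bFGF/EGF and not called in BMP4. Pax6 was at 1.53 ± 0.226, 4.80 ± 0.265 and 7.16 ± 0.433 FPKM and was called higher in both treated groups, and Slc1a3 was at 73.6 ± 8.27, 130 ± 19 and 113 ± 8.52. The 6 summed to 1674 to 1770, 659 to 762 and 1414 to 1876 FPKM, so BMP4 overlapped with bFGF/EGF. All 6 astrocyte markers tested were called higher in both treated groups than in bFGF/EGF, beside 16.5% of all genes in bFGF/BMP4 and 21.3% in BMP4. Gfap reached 2566 ± 435 FPKM in BMP4 from 0.0926 ± 0.0379 in bFGF/EGF. Between BMP4 and bFGF/BMP4 the astrocyte list was mixed, with 4 called higher, 1 lower and 1 not called. Slc1a2 was at 175 ± 18.1 FPKM in bFGF/BMP4 and 65.5 ± 12.4 in BMP4. The summed FPKM of 6 proliferation markers ran from 235 to 459 in bFGF/EGF, from 66.8 to 106 in bFGF/BMP4 and from 36.7 to 50.5 in BMP4. Of the other lists, 6 oligodendrocyte lineage markers summed to 1105 to 1595, 1120 to 1475 and 218 to 390 FPKM in that order, 6 neuronal markers to 25.2 to 32.1, 16.6 to 22.4 and 105 to 185, and 5 ependymal markers to 6.24 to 10.95, 9.49 to 10.5 and 52.3 to 61.9. The 6 microglial and 6 vascular markers each summed to at most 5.49 FPKM, with Csf1r, Ptprc and Cldn5 at no more than 3 fragments in any library. In BMP4 against bFGF/EGF all 3 vascular markers tested were called higher, beside 21.3% of all genes. Of 2 microglial markers tested, 1 was called higher and 1 lower. Kdr was at 3.31 ± 0.712 FPKM in BMP4 and 0.152 ± 0.0545 in bFGF/EGF, and Tmem119 at 1.34 ± 0.133 and 0. The part that these cell states played in the results below was not tested. In bulk RNA, fewer cells expressing a gene and less of its RNA per cell cannot be told apart.

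A window of 250 bases before the start of the Ensembl canonical transcript was taken for each protein-coding gene tested (GRCm39). The sequence that the network reads, CACGTG, was searched for in it on both strands. The 5 stretches printed next show where it lay before 4 of the members and before Srm, a MYC-induced target encoding spermidine synthase, with the E-box in capitals.
Max E-box, chr12:77009008-77009037, minus strand: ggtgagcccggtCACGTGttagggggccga
Mlx E-box, chr11:100978062-100978091, plus strand: ttggtgggttggatCACGTGactgagcctc
Mxd4 E-box, chr5:34345256-34345285, minus strand: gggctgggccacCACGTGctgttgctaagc
Mxd3 E-box, chr13:55477810-55477839, minus strand: gcgtcccgcgcgCACGTGtagcccaggccg
Srm E-box, chr4:148675776-148675805, plus strand: agggcctctcccCACGTGgcccggcagccg
These 4 of 10 members (40%) held a match, beside 1037 of 13787 promoters of the same length (7.52%). The match began 25 bases before the start of Max, 16 bases before Mlx, 33 bases before Mxd4 and 223 bases before Mxd3. The annotated gene span of Mxd3 begins further upstream and covers that site. The annotated span of Mlx begins within its match. No CACGTG lay in this window before Myc, Mycn, Mycl, Mxi1, Mxd1 or Mnt, which says only that these letters are not there. For Mxi1 the window lies inside the annotated gene span, which begins further upstream. E2F words (TTTCGCGC, TTTGGCGC, TTTCCCGC or TTTGCCGC, on either strand) were found before 3.09% of promoters and, among the members, before Mycn alone. The Mycn promoter is shown because its 3 E2F words stand close together and the first pair overlaps, with the words in capitals. It lies inside the annotated gene span of Mycn, which begins further upstream.
Mycn promoter, chr12:12991916-12992165, minus strand: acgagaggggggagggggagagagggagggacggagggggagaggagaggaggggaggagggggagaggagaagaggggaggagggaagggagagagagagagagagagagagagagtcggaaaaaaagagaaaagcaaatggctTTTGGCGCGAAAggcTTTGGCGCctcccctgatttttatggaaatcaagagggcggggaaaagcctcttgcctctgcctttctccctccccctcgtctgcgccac
A FoxO word (GTAAACA, on either strand) was present in 2.23% of promoters and, among the members, before Myc alone. These matches are descriptions of letters, and no binding was measured.

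The level of Myc was about 10-fold lower in both treated groups than in bFGF/EGF. Mxd3, the MXD gene known for its expression in dividing cells, was called lower as well, whereas Mxd1 was higher with bFGF/BMP4 and Mxi1 with BMP4. Mycn was called lower with bFGF/BMP4, and with BMP4 alone its values overlapped with those of day 0. A gene was called where limma gave an adjusted p of at most 0.05 over 20207 genes and the fold change was at least 2, on the log2(FPKM + 0.1) scale.

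**Figure D1:**
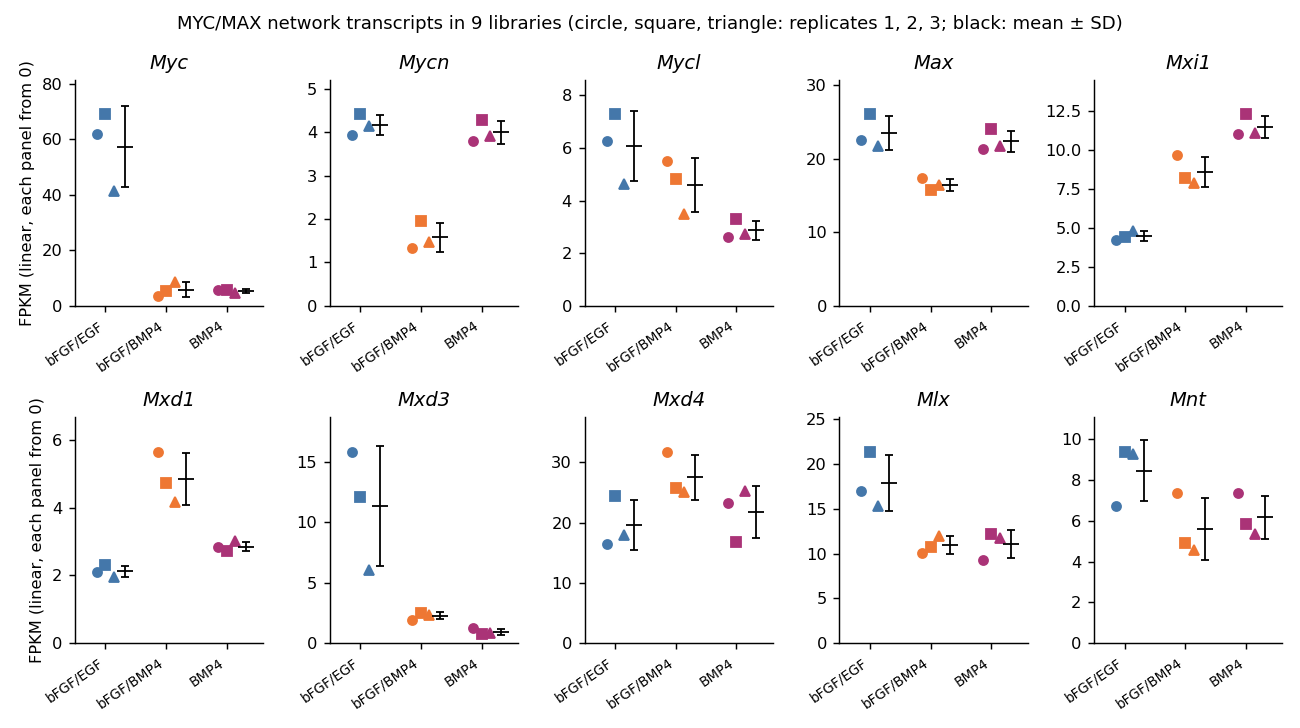
FPKM of the 10 members in each of the 9 libraries, on a linear axis from 0 in each panel, with a symbol for each replicate and the mean ± SD in black. Myc lies between 41.2 and 69.05 FPKM in bFGF/EGF and at or below 8.66 FPKM in the 6 treated libraries, and Mycn lies lowest in bFGF/BMP4.

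Between bFGF/BMP4 and bFGF/EGF, 1 member was called higher (Mxd1) and 3 were called lower (Myc, Mycn and Mxd3). Over all genes tested in this comparison, 16.5% were called higher and 14.1% lower. By adjusted p alone 8 of the 10 members passed, beside 48.6% of all genes, and the median log2 fold change over all genes was 0.063. Between BMP4 and bFGF/EGF, again 1 member was called higher (Mxi1) and 3 were called lower (Myc, Mycl and Mxd3). The background was 21.3% called higher and 15.4% called lower, and 6 members passed by adjusted p alone, beside 54.9% of all genes. These comparisons share the 3 bFGF/EGF libraries. Between BMP4 and bFGF/BMP4, 1 member was called higher (Mycn) and 1 lower (Mxd3), where 8.41% of all genes were called higher and 5.14% lower. In that comparison 5 members passed by adjusted p alone, beside 21.1% of all genes.

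**Figure D2:**
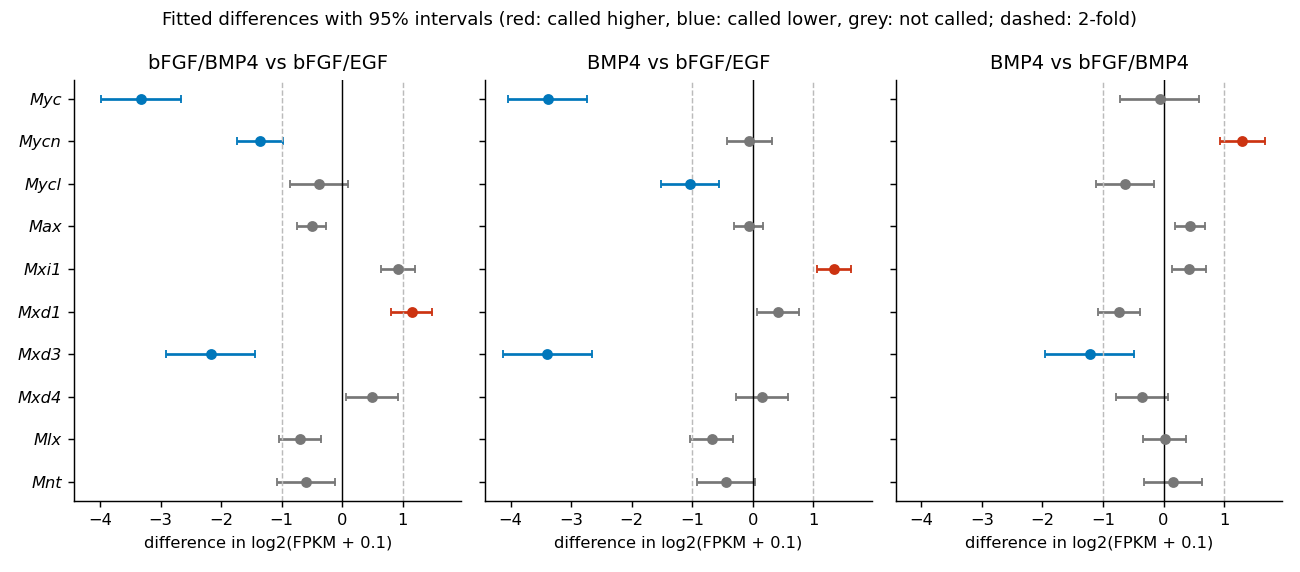
Fitted differences in log2(FPKM + 0.1) with 95% intervals for the 10 members in the 3 comparisons, red where called higher, blue where called lower and grey where not called, with dashed lines at a 2-fold difference. The intervals of Myc lie between -4.04 and -2.67 in both comparisons with bFGF/EGF and span 0 between the treated groups.

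Myc (ENSMUSG00000022346, chr15:61857227-61862223 in GRCm39, plus strand) encodes the founding activator of the network, an immediate target of growth factor signalling. Its FPKM was 61.98, 69.05 and 41.2 in the bFGF/EGF libraries, 3.64, 5.28 and 8.66 in bFGF/BMP4, and 5.71, 5.66 and 4.51 in BMP4. Every treated library lay far under every bFGF/EGF library, and the treated groups overlapped. The log2 fold change was -3.33 (SE 0.29, limma adjusted p = 1.22e-05) for bFGF/BMP4 and -3.39 (SE 0.29, limma adjusted p = 7e-06) for BMP4, each against bFGF/EGF. Between the treated groups it was -0.06 with a 95% interval from -0.72 to 0.59 (limma adjusted p = 0.918), an interval that holds differences of 1.5-fold in either direction. The sign of this small difference turned to 0.26 without bFGF/BMP4 replicate 3, the library with the highest Myc level of its group, and to 0.045 without BMP4 replicate 3.

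Mycn (ENSMUSG00000037169, chr12:12986076-12992915, minus strand) encodes N-MYC, the form best known from neural progenitors of the embryo. Its FPKM was 3.94, 4.41 and 4.14 in bFGF/EGF, 1.32, 1.96 and 1.46 in bFGF/BMP4, and 3.79, 4.29 and 3.901 in BMP4. The bFGF/BMP4 libraries were all below the other 6, while the BMP4 and bFGF/EGF libraries overlapped. Mycn was lower in bFGF/BMP4 than in bFGF/EGF by a log2 fold change of -1.36 (SE 0.17, limma adjusted p = 1.03e-04). It was higher in BMP4 than in bFGF/BMP4 by 1.30 (SE 0.17, limma adjusted p = 3.97e-04). Between BMP4 and bFGF/EGF the difference was -0.06 with a 95% interval from -0.43 to 0.31 (limma adjusted p = 0.79). This order of the treated groups was opposite to that of the proliferation markers, of which 5 of 6 were called lower in BMP4 than in bFGF/BMP4. Over all genes 5.14% were called lower there.

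Mycl (ENSMUSG00000028654, chr4:122889408-122896282, plus strand) encodes L-MYC, a weaker activator of the same family. Its FPKM was 6.26, 7.28 and 4.64 in bFGF/EGF, 5.52, 4.81 and 3.48 in bFGF/BMP4, and 2.62, 3.29 and 2.72 in BMP4. The BMP4 libraries lay under all others, and the remaining groups overlapped. Mycl was called lower in BMP4 than in bFGF/EGF, with a log2 fold change of -1.03 (SE 0.21, limma adjusted p = 0.0023), just past the 2-fold limit. The estimate slipped under 2-fold, to between -0.998 and -0.89 with adjusted p at most 0.0134 in limma, without bFGF/EGF replicate 1, bFGF/EGF replicate 2, BMP4 replicate 1 or BMP4 replicate 3. The call was also lost with a pseudocount of 1 (-0.85) and when limma tested against a fold of 1.5 (adjusted p = 0.0937). For bFGF/BMP4 against bFGF/EGF the value was -0.39 (95% interval -0.87 to 0.09, limma adjusted p = 0.163), and for BMP4 against bFGF/BMP4 it was -0.64 (95% interval -1.12 to -0.16, limma adjusted p = 0.0609).

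Max (ENSMUSG00000059436, chr12:76984043-77009009, minus strand) encodes the partner that MYC, MXD and MNT proteins share. Its FPKM was 22.6, 26.05 and 21.7 in bFGF/EGF, 17.3, 15.7 and 16.4 in bFGF/BMP4, and 21.3, 24.0 and 21.7 in BMP4. The bFGF/BMP4 libraries were the lowest, and the BMP4 libraries overlapped with bFGF/EGF, the same arrangement as for Mycn on a smaller scale. Max in bFGF/BMP4 differed from bFGF/EGF by a log2 fold change of -0.50 (SE 0.11, limma adjusted p = 0.00339) and BMP4 differed from bFGF/BMP4 by 0.44 (SE 0.11, limma adjusted p = 0.0167), both under the 2-fold limit. Between BMP4 and bFGF/EGF the value was -0.07 with a 95% interval from -0.31 to 0.18 (limma adjusted p = 0.628).

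Mxi1 (ENSMUSG00000025025, chr19:53298852-53364241, plus strand) encodes an MXD-type repressor that antagonises MYC. Its FPKM was 4.198, 4.41 and 4.83 in bFGF/EGF, 9.71, 8.19 and 7.87 in bFGF/BMP4, and 11.03, 12.3 and 11.1 in BMP4. The 3 groups did not overlap at any point, with bFGF/EGF lowest and BMP4 highest. The log2 fold change was 1.34 (SE 0.12, limma adjusted p = 1.07e-05) for BMP4 against bFGF/EGF, which was called. For bFGF/BMP4 against bFGF/EGF it was 0.92 (SE 0.12, limma adjusted p = 1.82e-04), just short of 2-fold. The step from bFGF/BMP4 to BMP4 was 0.42 (SE 0.12, limma adjusted p = 0.0368).

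Mxd1 (ENSMUSG00000001156, chr6:86624024-86646218, minus strand) encodes MAD1, the repressor classically induced when cells leave the cycle to differentiate. Its FPKM was 2.11, 2.30 and 1.97 in bFGF/EGF, 5.66, 4.73 and 4.16 in bFGF/BMP4, and 2.83, 2.72 and 3.01 in BMP4. The groups again did not overlap, but here bFGF/BMP4 was highest. Mxd1 was called higher in bFGF/BMP4 than in bFGF/EGF, with a log2 fold change of 1.14 (SE 0.15, limma adjusted p = 1.89e-04). In BMP4 it was 0.41 above bFGF/EGF (SE 0.15, limma adjusted p = 0.0458) and differed from bFGF/BMP4 by -0.73 (SE 0.15, limma adjusted p = 0.00702), neither reaching 2-fold.

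Mxd3 (ENSMUSG00000021485, chr13:55472981-55477908, minus strand) encodes MAD3, an atypical MXD protein made by cells in S phase. Its FPKM was 15.9, 12.1 and 6.04 in bFGF/EGF, 1.94, 2.53 and 2.32 in bFGF/BMP4, and 1.25, 0.730 and 0.819 in BMP4. All 3 groups were separate, in the order of their proliferation markers. Within groups the orders varied: the library with the highest Mxd3 level had the highest sum of proliferation markers in bFGF/EGF, the middle one in bFGF/BMP4 and the lowest in BMP4. The log2 fold change was -2.18 (SE 0.33, limma adjusted p = 3.93e-04) for bFGF/BMP4 and -3.40 (SE 0.33, limma adjusted p = 1.5e-05) for BMP4, each against bFGF/EGF. Between BMP4 and bFGF/BMP4 it was -1.22 (SE 0.33, limma adjusted p = 0.0246), a call that was lost without bFGF/BMP4 replicate 2, bFGF/BMP4 replicate 3, BMP4 replicate 2 or BMP4 replicate 3, where the value lay between -1.201 and -1.08 with limma adjusted p from 0.0807 to 0.0933. On rebuilt fragments limma-voom gave an adjusted p of 0.0571. The Mxd3 level is uncertain for a further reason, since 1526 bases of its span are shared with Prelid1 on the opposite strand, and the sources do not state whether fragments were counted by strand. Prelid1, a mitochondrial lipid transfer gene, was at 102 ± 16.6, 36.2 ± 1.62 and 36.7 ± 7.82 FPKM (SD, n = 3) in bFGF/EGF, bFGF/BMP4 and BMP4. Its part in the Mxd3 level was not tested.

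**Figure D3:**
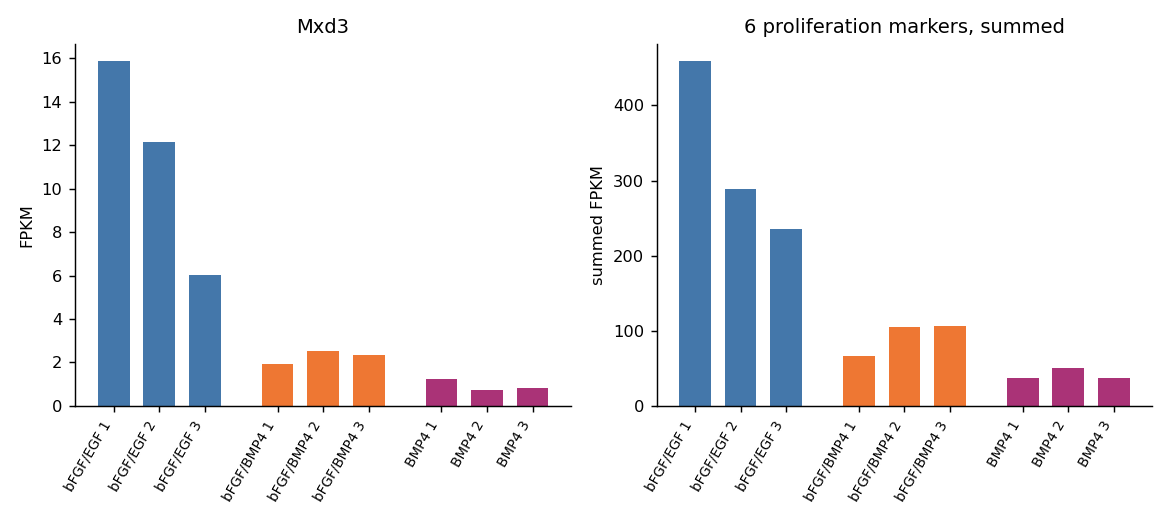
FPKM of Mxd3 (left) and the summed FPKM of 6 proliferation markers (right) in each library, on linear axes from 0, coloured by group. Both are highest in bFGF/EGF replicate 1, at 15.9 and 459 FPKM, and lowest in the BMP4 libraries.

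Mxd4 (ENSMUSG00000037235, chr5:34331227-34345240, minus strand) encodes MAD4 and was the most abundant repressor transcript in all 3 groups. Its FPKM was 16.5, 24.4 and 18.0 in bFGF/EGF, 31.8, 25.75 and 25.0 in bFGF/BMP4, and 23.2, 16.9 and 25.2 in BMP4. The bFGF/BMP4 libraries lay above those of bFGF/EGF, and the BMP4 libraries overlapped with both groups. No difference passed the test, with log2 fold changes of 0.50 (95% interval 0.07 to 0.93, limma adjusted p = 0.0545) for bFGF/BMP4 and 0.15 (95% interval -0.28 to 0.58, limma adjusted p = 0.537) for BMP4 against bFGF/EGF. The lowest BMP4 value belongs to replicate 2, in which the longest of 4 length classes of transcripts was a median of 0.168 log2 units below, and the shortest 0.294 above, the mean of the other BMP4 libraries. In bFGF/EGF replicate 2, which had the highest Mxd4 value of its group, the longest class was likewise lower (-0.085) and the shortest higher (0.220). Mxd4 is the longest member, with 8659 exonic bases, and the part of this length dependence in its value was not tested.

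Mnt (ENSMUSG00000000282, chr11:74721338-74736836, plus strand) encodes a MAX-binding repressor that is made in dividing and resting cells alike. Its FPKM was 6.71, 9.39 and 9.25 in bFGF/EGF, 7.34, 4.89 and 4.55 in bFGF/BMP4, and 7.36, 5.83 and 5.33 in BMP4. In both treated groups replicate 1 lay above the lowest bFGF/EGF library, so all groups overlapped. The log2 fold change was -0.60 (SE 0.21, limma adjusted p = 0.0406) for bFGF/BMP4 and -0.44 (95% interval -0.92 to 0.04, limma adjusted p = 0.107) for BMP4 against bFGF/EGF, both under 2-fold.

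Mlx (ENSMUSG00000017801, chr11:100978080-100983043, plus strand) encodes the partner of the Mondo proteins. Its FPKM was 17.0, 21.4 and 15.3 in bFGF/EGF, 10.03, 10.7 and 12 in bFGF/BMP4, and 9.30, 12.2 and 11.8 in BMP4. Both treated groups lay under bFGF/EGF and overlapped with each other. The log2 fold change was -0.70 (SE 0.16, limma adjusted p = 0.00441) for bFGF/BMP4 and -0.68 (SE 0.16, limma adjusted p = 0.00434) for BMP4, each against bFGF/EGF and under 2-fold. Mlx shares 1340 bases with Psmc3ip on the opposite strand, a meiotic recombination cofactor whose level was 12.5 ± 3.50, 2.84 ± 0.895 and 2.55 ± 0.611 FPKM in bFGF/EGF, bFGF/BMP4 and BMP4. With counting by strand not stated, the part of Psmc3ip in the Mlx level was not tested.

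The partners of MLX and MAX outside the 10 members differed among themselves. Mlxip, which encodes the glucose-sensing MondoA, rose from 4.47 ± 0.165 FPKM in bFGF/EGF to 13.3 ± 3.08 with bFGF/BMP4 and to 16.4 ± 3.86 with BMP4. It was called higher in both treated groups, with log2 fold changes of 1.53 (SE 0.21, limma adjusted p = 2.28e-04) and 1.82 (SE 0.21, limma adjusted p = 5.24e-05), the opposite sign to its partner Mlx. Mga, which encodes a large MAX-binding repressor, stayed at 5.03 ± 1.45, 4.95 ± 0.372 and 4.26 ± 1.05 FPKM and was not called. Mlxipl, which encodes ChREBP, averaged at most 0.0408 FPKM in a group and was below the filter. Of 5 MONDO and MLX targets 4 were tested, with 1 higher and 1 lower in each treated group against bFGF/EGF and 3 higher in BMP4 than in bFGF/BMP4. The shares of all genes called higher and lower were 16.5% and 14.1%, 21.3% and 15.4%, and 8.41% and 5.14% in these comparisons. The counts against bFGF/EGF were thus near the background. Txnip, a glucose-uptake inhibitor and the best known MondoA target, was at 0.973 ± 0.854, 2.39 ± 0.775 and 21.6 ± 3.37 FPKM. Its log2 fold change was 4.75 in BMP4 against bFGF/EGF (SE 0.59, limma adjusted p = 8.43e-05) and 3.16 in BMP4 against bFGF/BMP4 (SE 0.59, limma adjusted p = 0.00366). In bFGF/BMP4 against bFGF/EGF it was 1.58 (SE 0.59, limma adjusted p = 0.0493), a call near the limit between groups whose libraries overlapped. Arrdc4, an arrestin-domain relative of Txnip, was 1.54 higher in BMP4 than in bFGF/BMP4 on the same scale (SE 0.23, limma adjusted p = 9.63e-04). Klf10, a zinc-finger gene also induced by TGF-beta signals, had log2 fold changes of -3.29 in bFGF/BMP4 and -1.97 in BMP4 against bFGF/EGF (limma adjusted p = 1.07e-04 and 0.00225).

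FPKM is a level per length, so the members can be summed and ranked within a library. The summed FPKM of Myc, Mycn and Mycl was 72.2, 80.75 and 50.0 in the bFGF/EGF libraries, 10.5, 12.05 and 13.6 in bFGF/BMP4, and 12.1, 13.2 and 11.1 in BMP4. The summed FPKM of Mxd1, Mxi1, Mxd3, Mxd4 and Mnt averaged 46.0 ± 6.29, 48.8 ± 6.69 and 43.2 ± 4.13 (SD, n = 3) in the same order, with every group overlapping the others. The MYC sum exceeded the repressor sum in each bFGF/EGF library, with a ratio from 1.25 to 1.59. The ratio ran from 0.186 to 0.310 in bFGF/BMP4 and from 0.245 to 0.344 in BMP4, so that the treated groups overlapped with each other and not with bFGF/EGF. The makeup of the repressor sum differed between groups, as Mxi1 made up 9.90% ± 1.91, 17.6% ± 0.384 and 26.9% ± 4.46 of it in bFGF/EGF, bFGF/BMP4 and BMP4. The share of Myc in the MYC sum was 84.6% ± 1.88, 47.4% ± 14.8 and 43.5% ± 3.35 in the same order. Max per unit of the summed MYC, MXD and MNT members was 0.210 ± 0.0274, 0.271 ± 0.0129 and 0.406 ± 0.0513 in that order, and the 3 groups did not overlap. These sums and ratios are descriptions of transcript levels with no test, and protein was not measured.

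**Figure D4:**
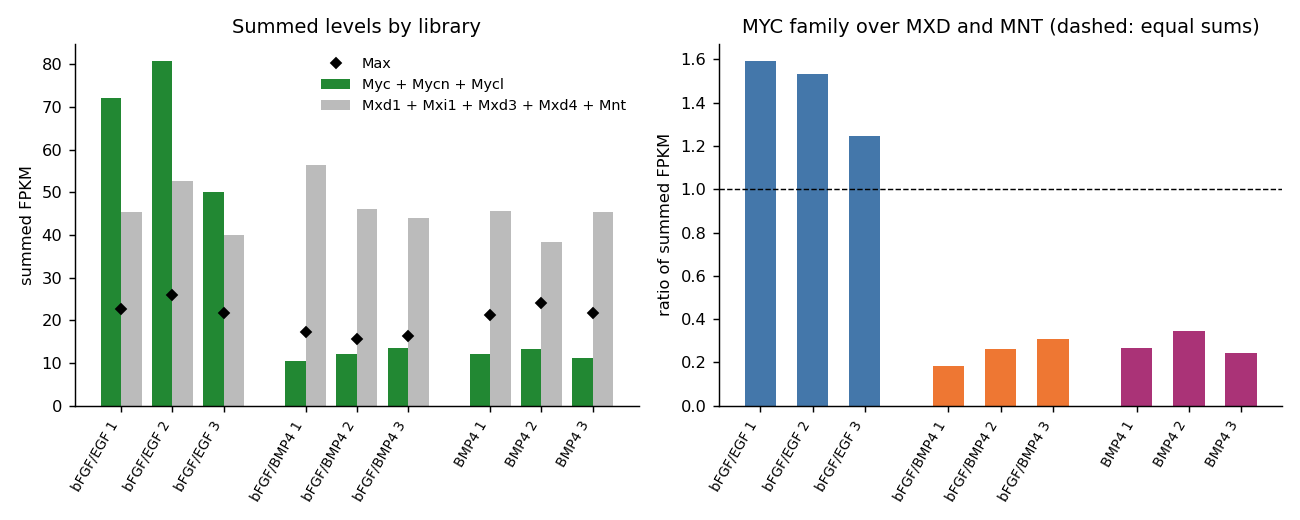
Left, summed FPKM per library of the MYC genes (green) and of the MXD genes with Mnt (grey), with Max as black diamonds. Right, the ratio of these sums per library with a dashed line at equal sums. The ratio is above 1 in the 3 bFGF/EGF libraries and at most 0.344 in the 6 treated libraries.

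The order of the levels changed with treatment. In bFGF/EGF, Myc led at 57.4 ± 14.5 FPKM, apart from all others, and was followed by Max, Mxd4 and Mlx at 23.5, 19.6 and 17.9 FPKM, each overlapping its neighbour in the order. Mxd1 was last at 2.13 FPKM, below Mycn without overlap. In bFGF/BMP4, Mxd4 led at 27.5 FPKM, followed by Max at 16.5, Mlx at 10.9 and Mxi1 at 8.59, none of which overlapped its neighbour above. Myc, at 5.86 ± 2.56 FPKM, overlapped with Mxi1 above it and with Mnt below it, and Mxd3 and Mycn, last at 2.27 and 1.58 FPKM, overlapped with each other. In BMP4, Max and Mxd4 shared the lead at 22.3 and 21.8 FPKM, Mxi1 and Mlx followed at 11.5 and 11.1, and Mxd3 was last at 0.932, below Mxd1 without overlap.

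Transcripts that MYC is known to raise were lower in both treated groups. Of 62 MYC-induced targets, all tested, 44 were called lower and 0 higher in bFGF/BMP4 than in bFGF/EGF, with a median log2 fold change of -1.41 beside 0.063 over all genes. In BMP4 against bFGF/EGF 47 were called lower and 0 higher, with a median of -1.56 beside 0.1. Over all genes 14.1% were called lower and 16.5% higher in the first of these comparisons, and 15.4% and 21.3% in the second. By adjusted p alone in limma, 2 of the 62 were higher in each of these comparisons. Between BMP4 and bFGF/BMP4 4 were called lower and 0 higher, with a median of -0.16 beside 0. Over all genes 5.14% were called lower and 8.41% higher there, so the count called lower was near the background. Those 4 were Mcm5, Plk1, Plk4 and Ung, which encode a subunit of the replicative helicase, a pair of mitotic and centriole kinases and a DNA repair glycosylase. Mcm5 fell from 56.2 ± 16.3 FPKM in bFGF/EGF to 9.03 ± 3.28 in bFGF/BMP4 and 1.96 ± 0.139 in BMP4. Its log2 fold change was -2.65 for bFGF/BMP4 and -4.73 for BMP4 against bFGF/EGF (limma adjusted p = 5.51e-05 and 9.62e-07). Ung had a log2 fold change of -2.41 in bFGF/BMP4 against bFGF/EGF (limma adjusted p = 5.57e-05), and Plk1 one of -4.43 in BMP4 against bFGF/EGF (limma adjusted p = 2.3e-06). Some of the 62 targets, such as Mcm5 and Plk1, also serve cell division. All 6 proliferation markers were called lower in each treated group than in bFGF/EGF, as most of the targets were. The markers and the targets differed between BMP4 and bFGF/BMP4. There 5 of the 6 markers were called lower (median -2.37), beside 4 of the 62 targets (median -0.16) and 5.14% of all genes. The part of proliferation in the target levels was not tested.

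Other targets, chosen after their values were seen, were called lower in both treated groups with no call between them, as Myc was. Cdk4, which encodes a G1 cyclin-dependent kinase, was at 180 ± 30.2, 37.9 ± 3.23 and 35.7 ± 4.25 FPKM in bFGF/EGF, bFGF/BMP4 and BMP4. Its log2 fold change against bFGF/EGF was -2.24 in bFGF/BMP4 and -2.33 in BMP4 (limma adjusted p = 2.15e-06 and 1.17e-06), and from bFGF/BMP4 to BMP4 it was -0.09 (SE 0.15, limma adjusted p = 0.749). Its promoter is shown because it holds 3 E-boxes in 250 bases, in capitals, more than any other target on the list.
Cdk4 promoter, chr10:126899125-126899374, plus strand: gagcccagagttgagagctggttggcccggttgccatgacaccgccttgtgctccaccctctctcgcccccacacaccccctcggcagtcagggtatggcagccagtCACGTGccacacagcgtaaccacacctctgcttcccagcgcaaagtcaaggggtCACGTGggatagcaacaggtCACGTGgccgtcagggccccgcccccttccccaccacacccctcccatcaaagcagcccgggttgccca
Srm was at 128 ± 17.9, 32.8 ± 6.42 and 24.2 ± 3.23 FPKM. The list was not uniform, since Odc1, which encodes the ornithine decarboxylase of polyamine synthesis and is a classical MYC target, was at 107 ± 17.5, 154 ± 42.3 and 141 ± 26.4 FPKM and was called in no comparison. An E-box in the window was found before 6 of the 62 targets (9.68%), of which 4 were called lower in each treated group, beside 40 of 56 without one in bFGF/BMP4 and 43 of 56 in BMP4.

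**Figure D5:**
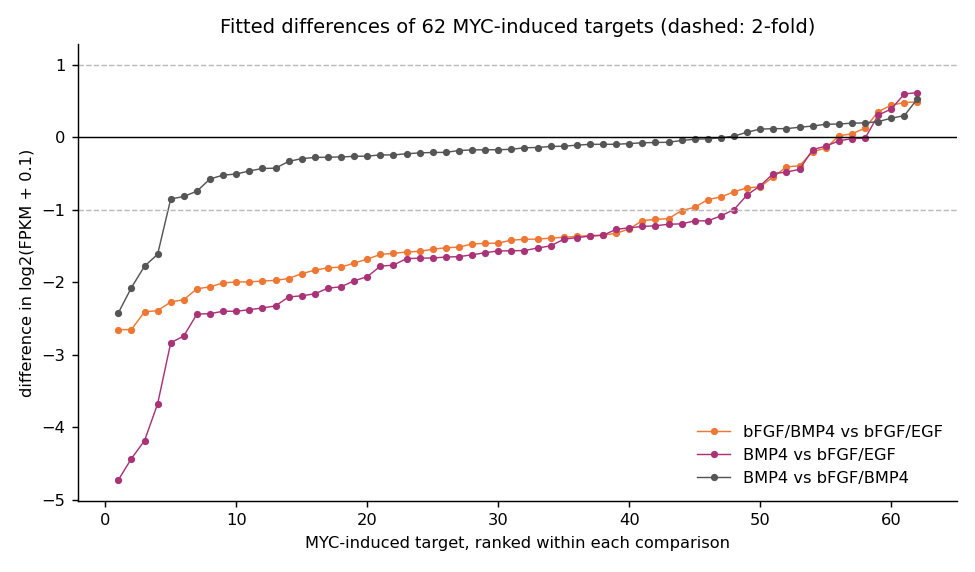
Fitted differences in log2(FPKM + 0.1) of the 62 MYC-induced targets, ranked within each comparison, with dashed lines at 2-fold. Most points of both comparisons with bFGF/EGF lie under the lower dashed line (44 and 47 called lower), whereas those of BMP4 against bFGF/BMP4 lie mostly between the lines (4 called lower).

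Genes that MYC is known to hold down were counted in the same way. Of 8 MYC-repressed targets 1 was called higher and 2 lower in bFGF/BMP4 than in bFGF/EGF (median log2 fold change -0.14), 4 higher and 0 lower in BMP4 than in bFGF/EGF (median 0.68, with 1 lower by limma adjusted p alone), and 4 higher and 0 lower in BMP4 than in bFGF/BMP4 (median 0.88, with 0 lower by limma adjusted p alone). The shares of all genes called higher and lower were 16.5% and 14.1%, 21.3% and 15.4%, and 8.41% and 5.14% in these comparisons, so the counts in bFGF/BMP4 against bFGF/EGF were near the background, and the difference between the treatments was not tested. Ndrg2, a differentiation gene also abundant in astrocytes, was at 2.09 ± 0.916, 109 ± 32.8 and 253 ± 35.8 FPKM in bFGF/EGF, bFGF/BMP4 and BMP4. Its log2 fold change against bFGF/EGF was 5.69 in bFGF/BMP4 and 6.93 in BMP4 (limma adjusted p = 4.6e-07 and 1.02e-07). Cdkn2b, which encodes the cyclin-dependent kinase inhibitor p15, was at 9.98 ± 3.67, 15.6 ± 1.12 and 47.6 ± 10.1 FPKM and was called higher in BMP4 than in bFGF/EGF, by 2.29 (limma adjusted p = 3.39e-05), and than in bFGF/BMP4, by 1.59 (limma adjusted p = 0.00134). Gas1, a growth arrest gene, was lower in bFGF/BMP4 than in bFGF/EGF, with a log2 fold change of -1.75 (limma adjusted p = 1.4e-05). Cdkn1a, which encodes p21, was at 134 ± 20.9, 101 ± 11 and 144 ± 18.6 FPKM and was not called.

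Against bFGF/EGF, genes for the proteins that carry out repression and activation for the network were called lower or not called. Of 7 MXD and MNT corepressors, 3 were called lower and 0 higher in each treated group against bFGF/EGF (14.1% and 15.4% of all genes were called lower), and none was called between the treated groups, where 1 was lower by limma adjusted p alone. Hdac2, a histone deacetylase of the SIN3 complex, was at 52.1 ± 4.23, 21.9 ± 1.28 and 19.4 ± 2.54 FPKM in bFGF/EGF, bFGF/BMP4 and BMP4. Its log2 fold change was -1.25 for bFGF/BMP4 and -1.42 for BMP4 against bFGF/EGF (limma adjusted p = 2.29e-05 and 6.41e-06). Sap30, a SIN3 complex subunit, had one of -1.48 in bFGF/BMP4 against bFGF/EGF (limma adjusted p = 4e-04). Sin3a itself was at 11.1 ± 2.37, 9.29 ± 0.953 and 8.60 ± 1.45 FPKM and was not called. Of 9 MYC coactivators and partners, 3 were called lower in bFGF/BMP4 and 4 in BMP4 against bFGF/EGF, with 0 higher and the other 6 and 5 not called. The shares of all genes called lower were 14.1% and 15.4%. By limma adjusted p alone, 5 and 7 of the coactivators and 3 and 4 of the corepressors were lower, with 0 higher. On that limit 48.6% and 54.9% of all genes passed in either direction. Ruvbl1 and Ruvbl2, the paired ATPases of chromatin complexes that MYC recruits, led the coactivator list. The level of Ruvbl2 was 44.6 ± 6.43, 11.9 ± 1.45 and 10.2 ± 0.363 FPKM, with log2 fold changes of -1.89 and -2.11 (limma adjusted p = 3.3e-06 and 1.14e-06). For Ruvbl1 the log2 fold changes were -1.74 and -1.59 (limma adjusted p = 8.76e-06 and 1.01e-05).

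Among 9 regulators of MYC protein stability, 1 was called higher and 3 lower in bFGF/BMP4, and 0 higher and 4 lower in BMP4, each against bFGF/EGF. Over all genes 16.5% were called higher and 14.1% lower in the first comparison, and 21.3% and 15.4% in the second. In BMP4 against bFGF/BMP4, 0 were called higher and 3 lower (Fbxw7, Aurka and Cip2a), beside 8.41% and 5.14% of all genes. Fbxw7, which encodes the ubiquitin ligase subunit that marks MYC and MYCN for breakdown, was at 6.53 ± 1.39, 17.6 ± 4.22 and 7.45 ± 0.557 FPKM in bFGF/EGF, bFGF/BMP4 and BMP4. It was called higher in bFGF/BMP4 than in bFGF/EGF, with a log2 fold change of 1.41 (SE 0.21, limma adjusted p = 3.38e-04), and lower in BMP4 than in bFGF/BMP4, with one of -1.20 (SE 0.21, limma adjusted p = 0.00231). Aurka, the mitotic kinase that shields MYCN from that ligase, had log2 fold changes of -2.04 in bFGF/BMP4 and -3.72 in BMP4 (limma adjusted p = 8.59e-04 and 1.21e-05). Skp2, another ligase subunit acting on MYC, had one of -1.64 in bFGF/BMP4 (limma adjusted p = 8.81e-04). Cip2a, an inhibitor of the phosphatase that destabilises MYC, had one of -2.53 in BMP4 (limma adjusted p = 1.08e-04). The last 3 genes are themselves expressed in cycling cells, and MYC protein was not measured.

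The genes whose pattern over the 9 libraries lay closest to a member were found among 7458 protein-coding genes with a mean of at least 5 FPKM, by the root-mean-square difference of centred log2(FPKM + 0.1) values. Closest to Myc was Mthfd1l, a mitochondrial folate enzyme, at a difference of 0.259 log2 units and with 23.7 ± 4.06, 2.20 ± 0.649 and 1.60 ± 0.194 FPKM in bFGF/EGF, bFGF/BMP4 and BMP4, followed by Plk2 and Nsg1. Closest to Mycn was Rfx4, a transcription factor gene of neural progenitors, at 0.147 log2 units and with 36.1 ± 3.13, 13.3 ± 2.40 and 32.6 ± 1.90 FPKM, followed by Arl4a and Septin5. Closest to Mxi1 was Snx14 at 0.1 log2 units, followed by Slc22a5 and Nicn1. The genes closest to Mxd3 were Kif22, Kif18b and Lig1, which encode a pair of mitotic kinesins and the replicative DNA ligase, and Kif22 was at 16.5 ± 6.73, 3.45 ± 0.503 and 1.195 ± 0.245 FPKM. Closest to Mxd4 were Abca2, Tecpr1 and Rnf123, at 0.106 to 0.126 log2 units. These likenesses are descriptions over libraries that share depth and composition, and carry no test.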

How the data were processed

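RNA of 9 NSC cultures was sequenced as paired ends on an Illumina NovaSeq. Per the labels and the methods, the authors trimmed reads with fastp 0.19.7, aligned them to mm39 with HISAT2 2.0.5 and counted with featureCounts 1.5.0-p3 (versions from the submitters' processing notes). The deposited table holds FPKM per gene and library. The program that made the FPKM values, the annotation release and the use of strand are not given in the sources used here. FPKM is relative to each library's total, so changes in RNA content per cell are not seen.

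Identifiers were matched to GENCODE M39 (GRCm39, the same build), where 54749 of 55704 rows were found. Values were compared on log2(FPKM + 0.1) for the 20207 genes with a mean of at least 0.1 FPKM, in 1 limma 3.58.1 fit (R 4.3.3, eBayes with trend) over all 9 libraries, with Benjamini-Hochberg adjustment over all genes tested. The authors used DESeq2 on raw counts, which were not used here. The deposited FPKM values called for a test on a log scale, and the limits of the authors (adjusted p of 0.05, fold of 2) were kept. In simulated data with 200 changed genes among 20207, drawn for BMP4 against bFGF/BMP4, 93% of changes of 2 log2 units and 88% of those of 1.5 were recovered, with 13 unchanged genes called. The changed genes were not drawn from those with the fewest fragments, and all genes shared a common dispersion. Changes near the 2-fold limit were not simulated, so their recovery is not known. Fragments were rebuilt from the FPKM values as whole numbers (within 0.1) for 23182 of 30860 genes above 0, all 10 members included, and library totals are approximate.

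Members and lists were chosen with earlier results of these data known. Named genes are all members, all network partners and, of each other list, the called genes with a mean of at least 1 FPKM and the largest changes (2 in each direction and comparison). The values of 1 gene that this rule names are not reported here. Likeness was sought for 5 members. Others named were chosen after their values were seen. Alternatives were another pseudocount, filter, scaling, model, threshold or set of libraries, and a block for the replicate number. Figures were drawn with matplotlib 3.10.9.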

Additional observations from a re-analysis of the deposited data

How the results depend on the processing

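With a pseudocount of 1, which shrinks changes of low genes, 0 members were called higher in bFGF/BMP4 against bFGF/EGF (Mxd1 at 0.90), 0 higher (Mycn at 0.96) and 0 lower between BMP4 and bFGF/BMP4, MYC-induced targets lower in that comparison numbered 2, and MYC-repressed targets lower in bFGF/BMP4 against bFGF/EGF numbered 1, as they did with a mean of at least 1 FPKM. By adjusted p alone in limma, members higher and lower numbered 2 and 6 (bFGF/BMP4 against bFGF/EGF), 2 higher (BMP4 against bFGF/EGF), and 3 and 2 (BMP4 against bFGF/BMP4). MYC-induced targets then numbered 2 higher in each comparison with bFGF/EGF and 8 lower between treated groups, and MYC-repressed targets 2 higher in bFGF/BMP4 and 1 lower in BMP4 against bFGF/EGF. Mycl in BMP4 against bFGF/EGF fell under 2-fold with the pseudocount of 1 (-0.85). Tested against a fold of 1.5 (limma treat), that call was lost, members higher in bFGF/BMP4 against bFGF/EGF numbered 2, and between treated groups 0 members were lower and 2 MYC-repressed targets higher. With limma-voom 0 members were lower between treated groups. Leaving out 1 library, members called lower ranged from 0 to 1 in BMP4 against bFGF/BMP4 and from 2 to 3 in BMP4 against bFGF/EGF, and MYC-induced targets called lower from 43 to 45, 47 to 48 and 3 to 5 in the order of the comparisons above. Signs turned for 3 differences near 0: Mlx between BMP4 and bFGF/BMP4 (0.018 as reported, -0.056 on the TPM scale, -0.041 without bFGF/BMP4 replicate 1, -0.055 and -0.030 without BMP4 replicates 2 and 3, and at most 0.14), Max between BMP4 and bFGF/EGF (0.010 without bFGF/EGF replicate 2, and down to -0.12) and Myc between BMP4 and bFGF/BMP4 (0.26 without bFGF/BMP4 replicate 3, 0.045 without BMP4 replicate 3, and down to -0.36). Of 570 repeats of member fold changes, 538 kept direction and side of the threshold. The causes were not tested.

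Correlations of deviations from the group means ran from -0.212 to 0.222 for same-numbered libraries of different groups. For libraries with other numbers they ran from -0.248 to 0.187, so the numbers were not taken as pairs. With the replicate block 1 member was higher and 3 lower in bFGF/BMP4 against bFGF/EGF, with 44 MYC-induced targets lower, and no call of a member or count changed side in any comparison.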
